A study of Mus musculus with 13 samples.

Results

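The experiment asked how far the response of the mouse midbrain to the neurotoxin MPTP depended on Ripk3 in astrocytes. Its measure was the interaction of genotype and MPTP, which is the log2 fold change with MPTP in mice without astrocytic Ripk3 minus that in mice that kept it. All 13 libraries of the series entered it, 6 from Cre- and 7 from Cre+ mice, and 19360 of the 49315 genes in the files had enough counts to be tested (at least 10 counts in at least 3 libraries). A positive interaction means a more positive or less negative change with MPTP in Cre+ mice, and a negative interaction a less positive or more negative one.

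Each library came from the midbrain of 1 male mouse carrying Ripk3 fl/fl, a Ripk3 gene flanked by sites for the Cre recombinase, on a C57BL/6J background at 8 to 12 weeks of age. Cre+ mice also carried Aldh1l1-Cre/ERT2, in which the promoter of an astrocyte gene drives a recombinase that tamoxifen switches on, and Cre- mice were their littermates without it. Mice of all 4 groups received tamoxifen (60 mg/kg for 5 days) at least 1 week before the experiment, then MPTP (20 mg/kg) or saline once a day for 5 days, and were perfused with buffer and sampled 3 days after the last dose. The groups were Cre- Saline (n = 3), Cre- MPTP (n = 3), Cre+ Saline (n = 3) and Cre+ MPTP (n = 4). By this design, microglia, endothelial cells, neurons and infiltrating leukocytes of Cre+ mice keep an intact Ripk3. The study reported that Ripk3 transcript was absent from sorted astrocytes of Cre+ mice and unchanged in sorted CD11b+ myeloid cells. It reported no such measurement in endothelial cells or neurons.

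MPTP is turned by astrocytes into a toxin that dopaminergic neurons take up through the dopamine transporter. RIPK3 is a kinase of the necroptosis pathway: with RIPK1 above it and MLKL below it, it can rupture the cell, and it can also drive inflammatory transcription without cell death. Astrocytes near injury become reactive, with more GFAP and acute-phase proteins. Microglia near injury lose transcripts of the resting state such as P2ry12. Interferons induce a set of antiviral genes, many of which carry a short response element in their promoters.

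The promoters shown here are examples, and those with a motif do not stand for the genes searched. In 3 genes whose responses to MPTP in the genotypes lay within 2-fold of each other and in Mt1, a metallothionein gene with a negative interaction, the capitals mark a match to the interferon-stimulated response element (GAAANNGAAA on either strand) or to the glucocorticoid response element (GNACANNNTGTNC). P2ry12, the gene of smallest p in the interaction, held neither. B2m, Stat2 and Gbp7 were the 3 with the interferon match among 28 searched genes that rose within this 2-fold limit. Of 15 glucocorticoid-induced genes searched, Mt1 was 1 of 3 with the glucocorticoid match. Each line gives the 250 bases before a transcription start of RefSeq (GRCm38.p6), 5′ to 3′ along the gene: B2m at chr2:122147437-122147686 (plus strand), Stat2 at chr10:128270248-128270497 (plus), Gbp7 at chr3:142530086-142530335 (plus), Mt1 at chr8:94178839-94179088 (plus) and P2ry12 at chr3:59262986-59263235 (minus).
B2m: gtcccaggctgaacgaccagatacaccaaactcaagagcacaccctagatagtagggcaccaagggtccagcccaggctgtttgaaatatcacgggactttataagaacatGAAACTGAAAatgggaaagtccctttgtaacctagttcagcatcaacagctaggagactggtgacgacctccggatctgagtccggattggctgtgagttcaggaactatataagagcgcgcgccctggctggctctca
Stat2: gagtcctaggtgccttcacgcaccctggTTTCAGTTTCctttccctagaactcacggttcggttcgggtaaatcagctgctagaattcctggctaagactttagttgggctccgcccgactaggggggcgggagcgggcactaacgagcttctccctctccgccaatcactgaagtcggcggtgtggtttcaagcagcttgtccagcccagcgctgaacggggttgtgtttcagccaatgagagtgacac
Gbp7: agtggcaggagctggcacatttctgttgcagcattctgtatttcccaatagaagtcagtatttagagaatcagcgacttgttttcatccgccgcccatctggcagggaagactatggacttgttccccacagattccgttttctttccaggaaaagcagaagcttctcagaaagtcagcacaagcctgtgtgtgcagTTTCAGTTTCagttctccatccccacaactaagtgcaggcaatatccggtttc
Mt1: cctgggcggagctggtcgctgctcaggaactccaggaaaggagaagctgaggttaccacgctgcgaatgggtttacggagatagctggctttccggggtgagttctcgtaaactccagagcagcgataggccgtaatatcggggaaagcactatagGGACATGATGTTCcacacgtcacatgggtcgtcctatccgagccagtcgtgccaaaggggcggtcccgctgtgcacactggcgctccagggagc
P2ry12: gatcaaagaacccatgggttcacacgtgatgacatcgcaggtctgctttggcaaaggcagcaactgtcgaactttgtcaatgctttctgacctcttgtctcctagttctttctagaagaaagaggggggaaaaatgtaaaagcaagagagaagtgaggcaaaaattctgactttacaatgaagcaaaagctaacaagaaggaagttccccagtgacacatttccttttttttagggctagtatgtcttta

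Between 11489150 and 29397278 counts per library were assigned to genes, and 1 library stood apart. Cre- MPTP replicate 1 had the lowest total, counts in 21101 genes against 25432 to 27186 in the other 12 libraries, and 1.12% of its counts on mitochondrial genes against 3.55% to 6.06%. Its genes lay a median of 0.647 log2 units from the mean of their group, against 0.0794 to 0.355 in the others. The median SD of a gene within its group was 0.604 log2 units in Cre- MPTP and 0.129 to 0.198 in the other 3 groups. The main counts of genes are therefore also given without this library. The tissue matched its label: Th, the rate-limiting enzyme of dopamine synthesis, lay at 31.9 to 53.6 CPM (counts scaled to the size of the library with TMM factors) over all libraries, and the astrocyte gene Aldh1l1 at 78.0 to 160.1 CPM. Markers of neighbouring tissue differed between single libraries. The 10 muscle markers summed to 7083 CPM in Cre+ MPTP replicate 4 and to 16.7 to 168 CPM in the others, and the 6 pituitary markers to 614 and 451 CPM in Cre+ Saline replicates 1 and 3 and to 9.53 to 84.1 CPM elsewhere.

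Ripk3 itself (ENSMUSG00000022221, chromosome 14, 55784996 to 55788857, minus strand) was near the limit of detection in whole midbrain. It lay at 0.159, 0.195 and 0.402 CPM in Cre- Saline and at 0.394, 0.285 and 0.228 CPM in Cre+ Saline libraries. With MPTP it lay at 0.650, 0.713 and 1.32 CPM in Cre- mice and at 0.702, 0.224, 0.355 and 0.382 CPM in Cre+ mice. The MPTP groups overlapped through Cre+ MPTP replicate 1. The interaction was -1.36 (SE 0.71, 95% interval -2.89 to 0.17, edgeR adjusted p = 0.795), so that these counts do not check the deletion in single mice.

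Over all genes the interaction was centred on 0. Its median was -0.0037 log2 units with a median SE of 0.408, and 50.3% of genes had a negative value. edgeR's quasi-likelihood test called 2 genes at an adjusted p under 0.05 (0.0103% of genes tested), P2ry12 and Edn3, both positive. At an unadjusted p under 0.05 there were 492 positive (2.54%) and 624 negative (3.22%) interactions. Without Cre- MPTP replicate 1, the median SE fell to 0.218 and 199 of 19311 genes were called, 96 positive (0.497%) and 103 negative (0.533%), P2ry12 and Edn3 among them. Over all 13 libraries, DESeq2 called 223 genes and limma voom with sample weights 689, of which 125 and 199 were among these 199.

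The response to MPTP was also counted in each genotype apart; only the interaction tests a difference between these counts. In Cre- mice 431 genes rose (2.23% of genes tested) and 185 fell (0.956%) with MPTP; without Cre- MPTP replicate 1 these counts were 992 and 820. In Cre+ mice 0 genes passed (0%) in the same edgeR fit, with 672 at an unadjusted p under 0.05, while DESeq2 called 83, limma voom with sample weights 294, and edgeR without Cre- MPTP replicate 1 called 32. Averaged over both genotypes, 392 genes rose (2.02%) and 157 fell (0.811%), and without that library 965 rose and 800 fell. Among those 392 genes the median log2 fold change was 2.02 in Cre- and 0.843 in Cre+ mice, and among the 157 genes it was -1.40 and -0.336. Among the 965 and 800 genes called without that library these medians were 0.956 and 0.361, and -0.593 and -0.198. The average and the interaction come from the same libraries, whereas the responses of the 2 genotypes share none.

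**Figure D1:**
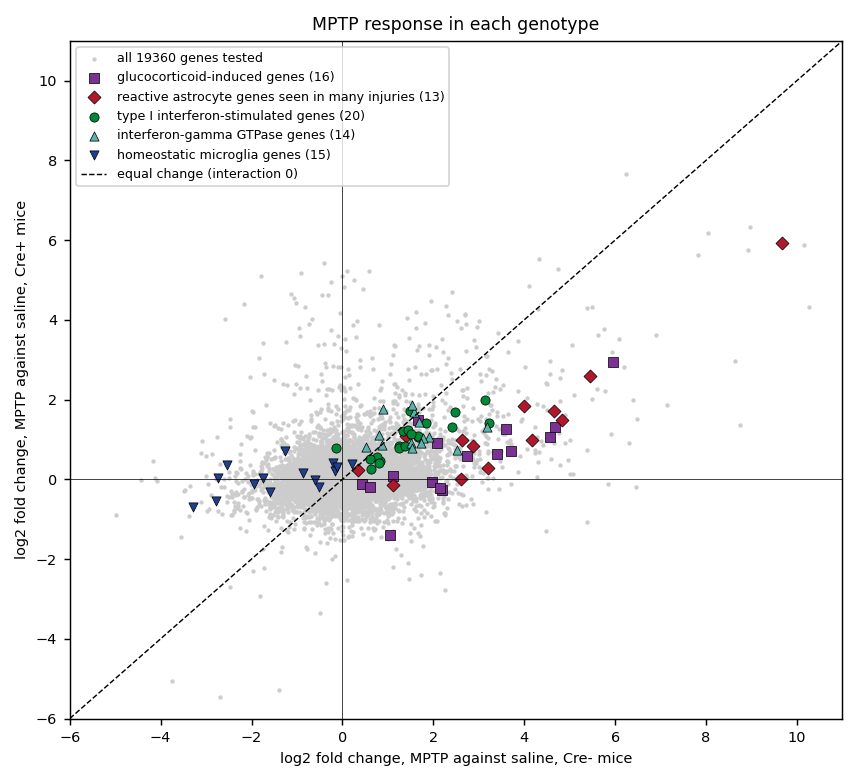
Log2 fold change with MPTP against saline in Cre+ mice (vertical axis) against that in Cre- mice (horizontal axis) for the 19360 genes tested (grey) and for 5 gene lists (coloured, genes tested in brackets); the dashed line marks an interaction of 0. Reactive astrocyte and glucocorticoid-induced genes lie below the line, and homeostatic microglia genes lie above it at the left. Of the interferon genes, 18 of 20 type I and 8 of 14 GTPase genes lie below it, with median interactions of -0.40 and -0.429.

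P2ry12 (ENSMUSG00000036353, chromosome 3, 59216272 to 59262871, minus strand), the purinergic receptor by which resting microglia sense ATP and ADP, had the smallest p in the interaction. It lay at 25.9, 22.1 and 18.5 CPM in Cre- Saline and at 23.6, 18.1 and 18.9 CPM in Cre+ Saline libraries. With MPTP it lay at 2.49, 3.41 and 3.56 CPM in Cre- mice and at 13.4, 15.3, 12.7 and 14.4 CPM in Cre+ mice. In whole tissue, fewer cells of a type and less RNA per cell cannot be told apart. The saline groups overlapped, and the lowest Cre+ MPTP library stood above the highest Cre- MPTP library. The log2 fold change with MPTP was -2.79 in Cre- and -0.53 in Cre+ mice, an interaction of 2.25 (SE 0.26, 95% interval 1.69 to 2.82, edgeR adjusted p = 0.024). Leaving out 1 library at a time kept the value between 2.13 and 2.38, but the adjusted p rose to as much as 0.155.

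Edn3 (ENSMUSG00000027524, chromosome 2, 174760619 to 174784042, plus strand) encodes endothelin 3, a peptide ligand of the endothelin receptors. It lay at 5.83, 5.66 and 8.11 CPM in Cre- Saline, 4.85, 4.60 and 5.41 CPM in Cre+ Saline, 1.30, 1.07 and 0.891 CPM in Cre- MPTP and 5.06, 3.69, 4.30 and 4.27 CPM in Cre+ MPTP libraries. The Cre- MPTP libraries were the lowest of the 13, and the saline groups did not overlap either, Cre+ Saline being lower. The interaction was 2.43 (SE 0.31, 95% interval 1.75 to 3.10, edgeR adjusted p = 0.0381), and over single libraries left out it stayed between 2.24 and 2.54 with an adjusted p of up to 0.235. Its receptor Ednrb, which astrocytes carry, had an interaction of 0.69 (SE 0.24, unadjusted p = 0.0135, edgeR), and the ligand Edn1 one of -1.41 (SE 0.50, unadjusted p = 0.0156, edgeR). Of the 6 endothelin genes tested, Edn3 was the called member, and the other 5 had adjusted p values above 0.05.

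The 12 positive and 12 negative interactions of smallest p were examined together. Of these 24 genes, 2 were called over all 13 libraries, and all 24 were called in the edgeR fit without that library. The CPM of the MPTP groups did not overlap between genotypes for 23 of them, where 11.3% of all genes tested had such MPTP groups, and those of the saline groups for 6 of them, where 11.6% had such saline groups. Both shares are affected by how the 24 were chosen. The interaction is the genotype difference with MPTP minus that in saline.

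All 12 positive genes were those in which the Cre- MPTP group lay farthest from the other 3 groups. Besides P2ry12 and Edn3 they included the microglial genes Fcrls and Siglech, the endothelial receptor Tek, the amino acid transporter Slc38a5, the myelin-associated genes Cmtm5 and Gpr37, and Itm2a, Aif1l, Depdc7 and B230206H07Rik. Fcrls lay at 11.1 to 16.6 CPM in Cre- Saline, 0.975 to 3.49 CPM in Cre- MPTP, 13.6 CPM (median; highest 14.2) in Cre+ Saline and 10.7 to 20.2 CPM in Cre+ MPTP libraries. Its interaction was 2.91 (SE 0.48, edgeR adjusted p = 0.137) over all libraries and 2.60 (SE 0.34, adjusted p = 0.00963) without Cre- MPTP replicate 1. Tek, the angiopoietin receptor of endothelial cells, lay at 3.36, 7.37 and 7.72 CPM in Cre- MPTP and at 16.1 to 26.4 CPM in the other 10 libraries.

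The negative genes were of 2 kinds. In 9 of 12 the Cre- MPTP group again lay farthest from the rest: C4b, a complement component, Ptges, a prostaglandin E synthase, Gfap, the intermediate filament of reactive astrocytes, Il4ra, an interleukin 4 receptor chain, Gpr84, a myeloid fatty acid receptor, the glucocorticoid-induced genes Fkbp5, Hif3a and Sgk1, and Tmem252. Gfap (ENSMUSG00000020932, chromosome 11, 102887336 to 102900912, minus strand) lay at 292, 363 and 342 CPM in Cre- Saline, 408, 351 and 544 CPM in Cre+ Saline, 3171, 1242 and 1623 CPM in Cre- MPTP and 385, 655, 331 and 378 CPM in Cre+ MPTP libraries. The Cre- MPTP libraries stood above all others, and Cre+ MPTP replicate 2 was the highest of the rest. The interaction of Gfap was -2.59 (SE 0.46, edgeR adjusted p = 0.137), and -2.10 (SE 0.33, adjusted p = 0.015) without Cre- MPTP replicate 1.

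C4b (ENSMUSG00000073418, chromosome 17, 34728380 to 34743882, minus strand) lay at 37.7 to 47.7 CPM in Cre- Saline, 36.0 to 59.6 CPM in Cre+ Saline, 220 to 325 CPM in Cre- MPTP and 84.6 to 97.8 CPM in Cre+ MPTP libraries. The Cre+ MPTP libraries lay between the saline libraries and the Cre- MPTP libraries, without overlap. Its log2 fold change was 2.75 in Cre- and 0.99 in Cre+ mice, an interaction of -1.75 (SE 0.27, edgeR adjusted p = 0.108; without Cre- MPTP replicate 1 -1.72, SE 0.25, adjusted p = 0.0125). Ptges lay at 18.3 to 23.7 CPM in Cre- MPTP and at 4.43 to 7.50 CPM in all other libraries. Il4ra lay at 27.7 to 32.5 CPM in Cre- MPTP, 12.3 to 15.4 CPM in Cre+ MPTP and 7.06 to 9.60 CPM in saline libraries, and the opposite-strand gene Gm44876 shares 9.51% of its exon length.

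In the other 3 negative genes a saline group lay farthest from the rest, so that the difference between the saline groups entered the interaction. Atf3, a stress-induced transcription factor, lay at 0.586 to 1.61 CPM in Cre- Saline and at 3.86 to 4.92 CPM in Cre+ Saline libraries, then at 1.92 to 2.60 CPM in Cre- MPTP and 0.839 to 1.91 CPM in Cre+ MPTP libraries. Zfp36, which encodes an RNA-binding protein that speeds the decay of cytokine transcripts, lay at 4.25 to 6.83 CPM in Cre- Saline, 15.7 to 24.4 CPM in Cre+ Saline, 11.7 to 23.5 CPM in Cre- MPTP and 4.10 to 12.1 CPM in Cre+ MPTP libraries. Depp1, a target of FOXO factors, lay at 0.556 to 1.79 CPM in Cre- Saline, 3.12 to 5.003 CPM in Cre+ Saline, 3.79 to 4.87 CPM in Cre- MPTP and 1.07 to 2.75 CPM in Cre+ MPTP libraries. The log2 difference between Cre+ and Cre- Saline was 2.17 (SE 0.43) for Atf3, 1.76 (SE 0.41) for Zfp36 and 1.86 (SE 0.42) for Depp1, each with an edgeR adjusted p of 1.

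**Figure D2:**
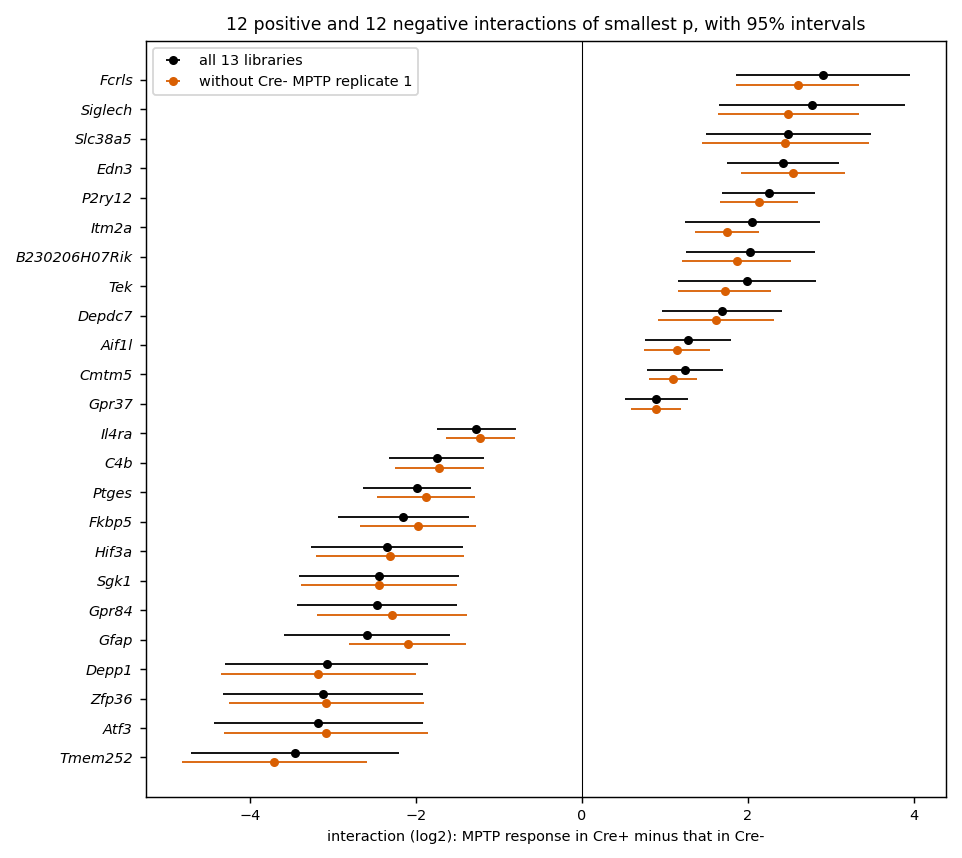
Interaction (log2, horizontal axis) of the 12 positive and 12 negative genes of smallest p, with 95% intervals, over all 13 libraries (black) and without Cre- MPTP replicate 1 (orange). The intervals of all 24 genes leave out 0 in both fits, and most orange intervals are shorter than the black ones.

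Lists of genes of known function, 33 lists with 397 of 409 genes tested, were then described. They were drawn up with earlier results of these data known, and each is described by its counts and median beside those of all genes. Over all genes tested, 50.3% had a negative interaction. At an unadjusted p under 0.05 (edgeR), 3.22% were negative and 2.54% positive. Among the 13 reactive astrocyte genes seen in many kinds of brain injury, the median log2 fold change was 3.20 in Cre- and 0.997 in Cre+ mice and the median interaction -2.59. All 13 had a negative interaction, 11 of them at an unadjusted p under 0.05 (edgeR), where 3.22% of all genes tested did, and 0 were called at an adjusted p under 0.05. Without Cre- MPTP replicate 1 the median was -2.26 and 3 genes were called negative, Gfap, Cp and Aspg, where 0.533% of all genes were.

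Serpina3n, a secreted protease inhibitor, lay at 16.2 to 21.8 CPM in the 6 saline libraries, at 291, 492 and 584 CPM in Cre- MPTP and at 38.5, 170, 40.0 and 24.1 CPM in Cre+ MPTP libraries. Lcn2, an iron-binding acute-phase protein, lay at 0.159 to 1.22 CPM in saline, 630, 460 and 595 CPM in Cre- MPTP and 25.8, 153, 15.4 and 20.3 CPM in Cre+ MPTP libraries. For both genes the Cre- MPTP libraries were the highest, the Cre+ MPTP libraries all lay above the saline libraries, and Cre+ MPTP replicate 2 was the highest Cre+ library. Their interactions were -2.95 (SE 0.78, edgeR adjusted p = 0.283) and -3.74 (SE 1.21, edgeR adjusted p = 0.502). Vim and S1pr3, of the same list, had interactions of -0.32 and -0.11. The lists known as A1 and A2 astrocyte genes had medians of -1.15 (7 of 11 negative at an unadjusted p under 0.05) and -1.31 (5 of 12), which were -0.712 and -1.001 without Cre- MPTP replicate 1. The A1 genes summed to 1478 CPM there and to 526 and 661 CPM in replicates 2 and 3 of Cre- MPTP.

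Genes of the inflammatory cascade also had negative medians. Among 15 acute-phase and IL-6/STAT3 genes tested, 14 had a negative interaction, with a median of -1.63. For 10 this was at an unadjusted p under 0.05, where 3.22% of all genes tested were. Socs3, the feedback inhibitor of STAT3, lay at 1.31 to 3.12 CPM in saline, 100.2, 26.9 and 28.1 CPM in Cre- MPTP and 4.47, 12.6, 1.86 and 3.89 CPM in Cre+ MPTP libraries. Stat3 itself had an interaction of -0.92 (SE 0.21, edgeR adjusted p = 0.20; 0.0404 without Cre- MPTP replicate 1). The 14 NF-kappaB feedback and target genes had a median of -1.04, and -0.643 without Cre- MPTP replicate 1. Of these, 7 had a negative interaction at an unadjusted p under 0.05, where 3.22% of all genes tested did. Nfkbia, Tnfaip3, Birc3 and Icam1 were among the 7, while Nfkb1 (-0.05) and Tnf (1.19, with groups at 3 counts or fewer) were not. Of 13 chemokine genes, 3 were negative and 2 positive at that level, where 3.22% and 2.54% of all genes tested were. Cxcl16, a membrane-bound chemokine, lay at 8.63 to 9.97 CPM in Cre- MPTP and 1.63 to 3.47 CPM in all other libraries. Cxcl12, which fell in Cre- mice (log2 fold change -1.34, edgeR adjusted p = 0.00154), lay at 19.8 to 29.6 CPM in Cre- MPTP and at 41.6 to 67.6 CPM in the other libraries.

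Of 14 complement genes, 13 had a negative interaction, with a median of -0.79 (-0.958 without Cre- MPTP replicate 1). At an unadjusted p under 0.05 the interaction was negative for 6 of 14, where 3.22% of all genes tested were. Among the 6 were C3, C4b, C1ra and Cfb. The 3 C1q chains, which microglia make, had values of -0.41, -0.40 and -0.22. Among 16 genes of the RIPK3, death receptor and DAMP pathways (DAMPs are danger signals released by dying cells), 3 were negative at an unadjusted p under 0.05: the TNF receptor Tnfrsf1a, the innate receptor Tlr2 and its adaptor Myd88. Tnfrsf1a lay at 102, 43.1 and 42.0 CPM in Cre- MPTP and at 12.2 to 20.9 CPM in all other libraries. Mlkl, the effector below RIPK3, had an interaction of -0.53 (SE 0.62, 95% interval -1.89 to 0.83), and Zbp1, a nucleic acid sensor that engages RIPK3, one of -1.19 (SE 0.55, 95% interval -2.39 to 0.01). The ligand genes Hmgb1 and S100b had values of 0.08 and 0.41.

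All 16 glucocorticoid-induced genes had a negative interaction, where 50.3% of all genes tested did. For 15 the unadjusted p was under 0.05 (edgeR), where 3.22% of all genes tested were negative at that level. The median log2 fold changes were 2.17 in Cre- and 0.612 in Cre+ mice, and the median interaction was -2.36. Without Cre- MPTP replicate 1 it was -1.46, with 5 called negative, where 0.533% of all genes were. Fkbp5 (chromosome 17, 28399095 to 28517524, minus strand), a co-chaperone of the glucocorticoid receptor, lay at 20.1 to 23.7 CPM in saline, 182, 128 and 128 CPM in Cre- MPTP and 28.4, 54.3, 23.8 and 29.0 CPM in Cre+ MPTP libraries. Its interaction was -2.16 (SE 0.36, edgeR adjusted p = 0.137; -1.97 and 0.019 without that library). Mt1, whose promoter is printed with its match to the glucocorticoid element, lay at 3634, 712 and 612 CPM in Cre- MPTP, Cre- MPTP replicate 1 being the highest, and at 155 to 311 CPM in Cre+ MPTP and 119 to 166 CPM in saline libraries. Sgk1, a kinase of ion transport, lay at 263 to 292 CPM in Cre- MPTP and 37.2 to 119 CPM in all others. Of the promoters of this list that could be searched, 3 of 15 held the letters of the glucocorticoid element (Map3k6, Mt1 and Sgk1), against 0.44% of the 13187 tested genes with a promoter; several genes of the list are also induced by other stresses.

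Homeostatic microglia genes had the opposite sign. All 15 had a positive interaction, 10 at an unadjusted p under 0.05, where 2.54% of all genes tested did, and the median log2 fold change was -1.25 in Cre- and 0.0345 in Cre+ mice. Without Cre- MPTP replicate 1, 6 were called, P2ry12, P2ry13, Siglech, Gpr34, Fcrls and Slc2a5, where 0.497% of all genes were. Siglech lay at 7.56 to 11.8 CPM in saline, 0.542, 2.58 and 1.02 CPM in Cre- MPTP and 7.89 to 11.1 CPM in Cre+ MPTP libraries. Gpr34 lay at 6.10 to 11.2 CPM in saline, 0, 1.03 and 1.16 CPM in Cre- MPTP and 4.35 to 6.21 CPM in Cre+ MPTP libraries. Not every microglial gene had such values. Csf1r, the receptor on which microglia depend for survival, lay at 53.1 to 66.4 CPM in Cre- MPTP and at 57.5 to 73.8 CPM in saline libraries, with an interaction of 0.42 (SE 0.20, 95% interval -0.01 to 0.86), and Tmem119 had 0.18 (SE 0.44, 95% interval -0.77 to 1.14). Disease-associated microglia genes had a median interaction of -0.214, with 1 of 14 at an unadjusted p under 0.05, Lgals3, and limma voom called 3 negative. The list summed to 12590 CPM in Cre- MPTP replicate 1 and to 3367 and 3728 CPM in replicates 2 and 3. In the other groups it summed to 3550 to 4382 CPM.

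Genes of blood vessels had interactions of both signs. Among 12 endothelial activation genes (median -1.55), 8 had a negative interaction at an unadjusted p under 0.05, where 3.22% of all genes tested did. Icam1, which lets leukocytes adhere, lay at 2.36 to 3.83 CPM in saline, 52.3 to 68.9 CPM in Cre- MPTP and 8.02, 19.8, 5.50 and 8.17 CPM in Cre+ MPTP libraries. Among 18 endothelial identity and barrier genes, 7 were positive and 2 negative at an unadjusted p under 0.05, where 2.54% and 3.22% of all genes tested were. Slco1c1, the thyroid hormone transporter of brain endothelium, lay at 3.36, 15.4 and 12.1 CPM in Cre- MPTP and 43.5 to 60.1 CPM in all other libraries, an interaction of 2.45 (SE 0.49, edgeR adjusted p = 0.144). Gkn3, an arterial gene, lay at 0, 0.238 and 0.132 CPM in Cre- MPTP, 3.79 to 6.67 CPM in Cre- Saline, 1.60 to 3.23 CPM in Cre+ Saline and 0.665 to 2.18 CPM in Cre+ MPTP libraries. The lipid transporter Mfsd2a and the glucose transporter Slc2a1 were the negative pair, with -1.27 and -0.76. Pericyte and smooth muscle genes had a median of 0.695, with 2 of 10 positive at an unadjusted p under 0.05.

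Of 12 neutrophil genes 8 were tested, and 7 were negative at an unadjusted p under 0.05, where 3.22% of all genes tested were. Neutrophil genes had the most negative median of the 33 lists, -4.72, and -4.20 without the 2 genes that had a group at 3 counts or fewer. Their summed level was 7.24 to 12.8 CPM in saline, 480 to 680 CPM in Cre- MPTP and 25.4 to 167 CPM in Cre+ MPTP libraries, most of it Lcn2, which reactive astrocytes also express. S100a8, a calcium-binding protein abundant in neutrophils, lay at 4.44, 2.93 and 18.6 CPM in Cre- MPTP and at 0.0397 to 0.951 CPM in the other libraries. The defining marker Ly6g had 0 to 3 counts per library and was not tested for a difference. The part of these cells in the inflammatory lists was not tested.

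**Figure D3:**
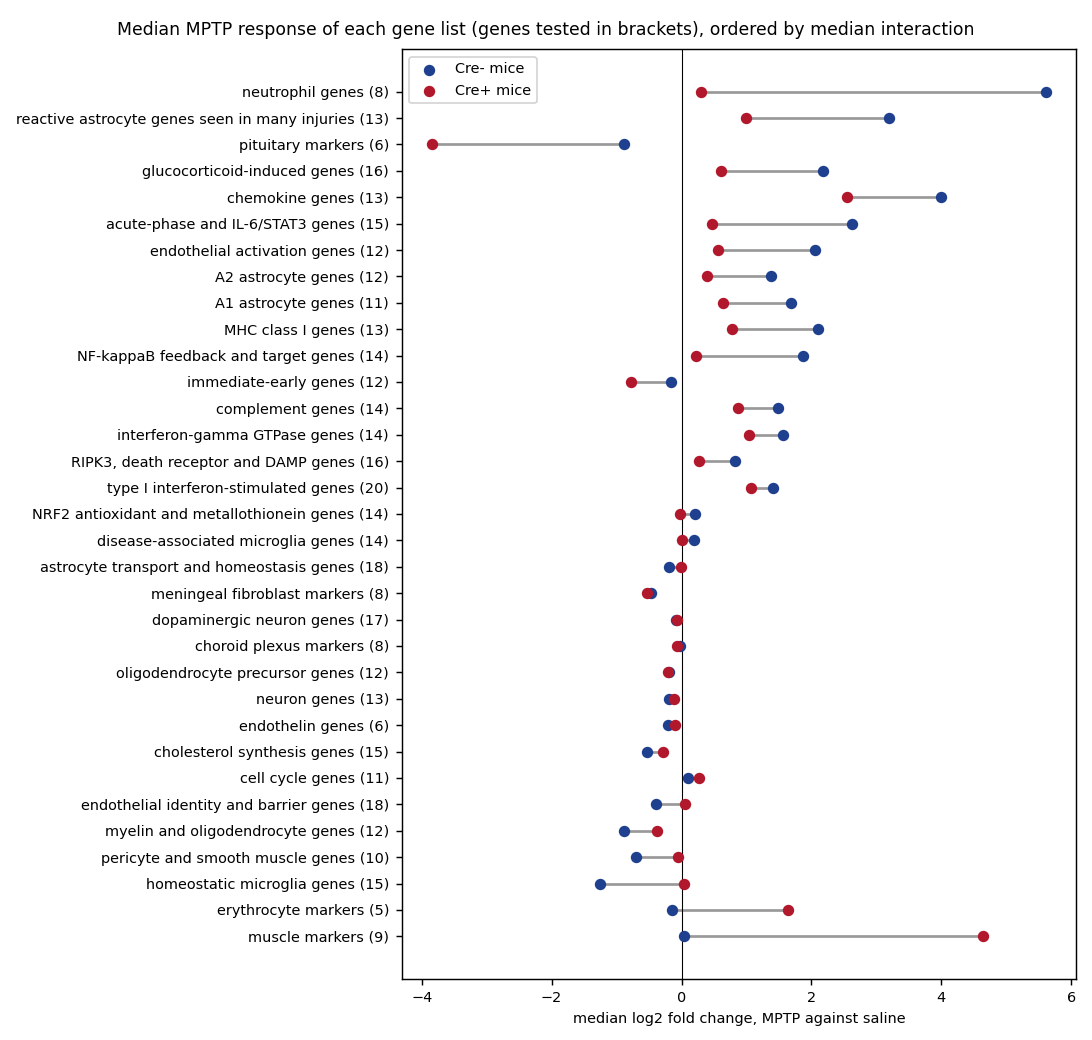
Median log2 fold change with MPTP against saline in Cre- mice (blue) and Cre+ mice (red) for each of 33 gene lists, with the number of genes tested in brackets, ordered by the median interaction. Inflammatory and hormone lists have the blue point to the right, homeostatic microglia genes have it to the left (-1.25 against 0.0345), and neuron lists have both points near 0; muscle and pituitary markers rest on 1 and 2 libraries.

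Genes whose responses in the genotypes lay within 2-fold of each other were counted next, because a missed threshold does not show a like change. A gene was counted where the average over genotypes was called and the 95% interval of the interaction lay within a 2-fold difference either way (log2 -1 to 1). Of the 549 genes called for the average, 58 met this (0.3% of all genes tested), 33 higher and 25 lower with MPTP, 2 were called in the interaction, and 489 were neither: not called, with an interval that reached past 2-fold. The median half-width of the interval was 0.952 log2 units among the 549 genes. Without Cre- MPTP replicate 1, 1765 genes were called for the average, of which 952 met the limit, 179 were called in the interaction and 658 were neither. For 17 of the 58 genes the interval left out 0, 7 of them among those higher, and for 385 of the 952 it did. The median log2 fold change of the 33 was 0.740 in Cre- and 0.465 in Cre+ mice, and that of the 25 was -0.693 and -0.278. For the 422 higher and 530 lower genes without that library the medians were 0.476 and 0.191, and -0.474 and -0.179. These medians are smaller than the 2-fold limit, so that a gene with little response in Cre+ mice can meet it, and meeting it does not show an equal response. Csrp1, an actin-associated LIM protein, met it with log2 fold changes of -0.73 in Cre- and -0.18 in Cre+ mice.

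Ly6a (ENSMUSG00000075602, chromosome 15, 74994877 to 74998031, minus strand), a surface protein of brain endothelium that interferon induces, had the smallest p of the average among the 58 genes. It lay at 19.9, 17.6 and 22.7 CPM in Cre- Saline, 15.7, 14.1 and 18.6 CPM in Cre+ Saline, 44.6, 67.3 and 73.6 CPM in Cre- MPTP and 55.7, 33.8, 53.4 and 52.8 CPM in Cre+ MPTP libraries. Every MPTP library exceeded every saline library, and the MPTP groups overlapped through Cre- MPTP replicate 1 alone. The log2 fold change was 1.63 in Cre- and 1.60 in Cre+ mice, and the interaction -0.03 (SE 0.31, 95% interval -0.70 to 0.65; -0.21, interval -0.74 to 0.31, without Cre- MPTP replicate 1). The neighbouring family member Ly6c1 had 0.81 and 1.02, an interaction of 0.21 (SE 0.28, 95% interval -0.40 to 0.82). Because Ly6a and Ly6c1 belong to a family of similar genes, reads could have been split between members.

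Among the others of the 58 with the smallest p were Irf9, the DNA-binding subunit of the interferon-stimulated complex, Ctsc, a protease activator of myeloid cells, the Fc receptor Fcgr1, the actin-binding Tagln2, Timeless, Jade2 and Ifi35. Irf9 lay at 12.5, 15.2 and 16.4 CPM in Cre- Saline, 14.2, 10.98 and 13.4 CPM in Cre+ Saline, 30.2, 36.8 and 38.2 CPM in Cre- MPTP and 22.7, 20.3, 28.4 and 20.4 CPM in Cre+ MPTP libraries. The MPTP groups did not overlap, and the interaction was -0.42 (SE 0.24, 95% interval -0.95 to 0.11). Fcgr1 lay at 5.74, 6.93 and 9.31 CPM in Cre- MPTP and 8.94, 4.64, 9.63 and 9.01 CPM in Cre+ MPTP libraries, above 2.85 to 4.02 CPM in saline. The 6 lower genes among the 15 of smallest p were Fgfr2, Stmn4, Prkcq, Dpy19l1, Csrp1 and S1pr1, with interactions of 0.48 to 0.62 whose intervals all left out 0. Fgfr2, a fibroblast growth factor receptor, had log2 fold changes of -1.02 and -0.40 and was called in the interaction without Cre- MPTP replicate 1 (0.64, SE 0.13, edgeR adjusted p = 0.0376).

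**Figure D4:**
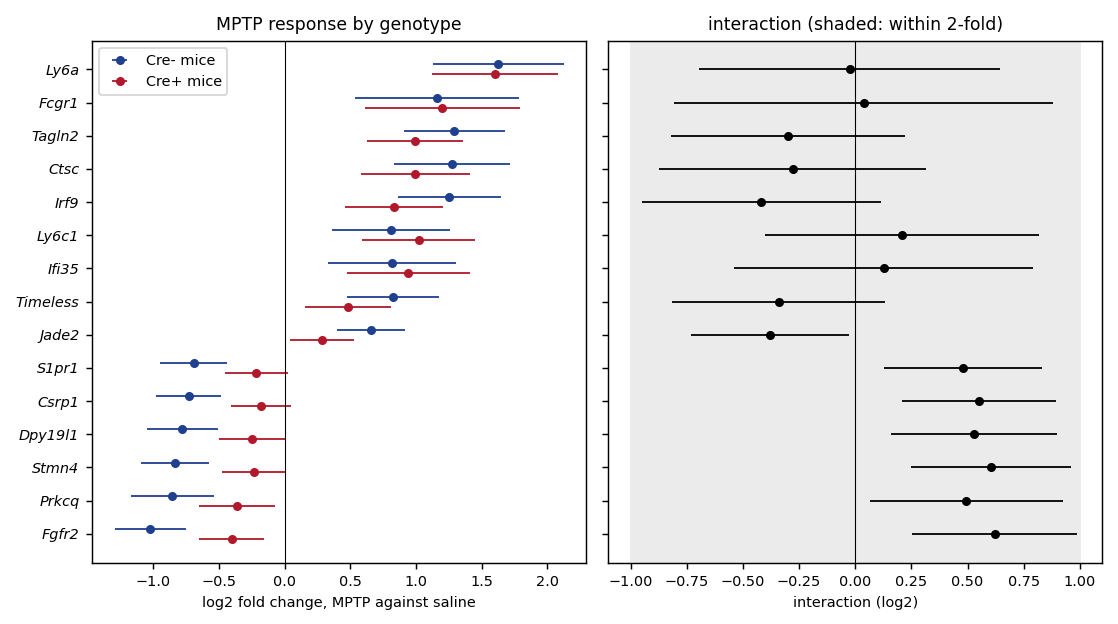
Left, log2 fold change with MPTP against saline in Cre- (blue) and Cre+ (red) mice for the 15 genes of smallest p among the 58 that met the 2-fold limit; right, their interaction; bars are 95% intervals and the shaded band marks a 2-fold difference either way. The values of Ly6a over all libraries are 1.63 and 1.60, and the 6 lower genes have interactions between 0.48 and 0.62.

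Most type I interferon-stimulated genes were called on average (edgeR over all 13 libraries). In Cre+ mice alone 0 were, as for all 19360 genes tested. Of 20 type I interferon-stimulated genes, 16 rose on average and 0 fell, where 2.02% and 0.811% of all genes tested did. The median log2 fold changes were 1.41 in Cre- and 1.06 in Cre+ mice. The 2-fold limit, which also asks for a call on average, was met by 4 of the 20 and by 0.3% of all genes tested. Of the 549 genes called for the average, 58 met it. By the interval alone, 4 of the 20 lay within 2-fold, where 36.7% of all genes tested did. The median interaction was -0.40. Values were negative for 18 of 20, where 50.3% of all genes tested had a negative value. For 3 of them (Irf7, Oasl2 and Bst2) the unadjusted p was under 0.05 (edgeR). Without Cre- MPTP replicate 1 the median was -0.584, the median responses were 1.63 and 1.07, and edgeR called 0. Over all libraries limma voom called 2. Isg15, a ubiquitin-like antiviral protein, lay at 1.79 to 3.21 CPM in saline, 8.56, 9.47 and 10.8 CPM in Cre- MPTP and 5.17, 6.10, 9.36 and 4.35 CPM in Cre+ MPTP libraries. All MPTP libraries exceeded all saline libraries for Isg15, and the interaction was -0.42 (SE 0.39, 95% interval -1.27 to 0.42), which allows both a larger and a more than 2-fold smaller response in Cre+ mice. Irf7, the factor that amplifies interferon output, lay at 20.6 to 24.9 CPM in Cre- MPTP, 6.71 to 15.9 CPM in Cre+ MPTP and 1.83 to 3.65 CPM in saline libraries, an interaction of -1.15 (SE 0.43, edgeR adjusted p = 0.701).

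Of 14 interferon-gamma GTPase genes, which defend cells against intracellular pathogens, 11 rose on average, where 2.02% of all genes tested did. Their median interaction was -0.429. All 14 rose on average once Cre- MPTP replicate 1 was left out, where 965 of 19311 genes tested did. The median interaction was then -0.652, with median log2 fold changes of 1.84 in Cre- and 1.04 in Cre+ mice. Gbp7, whose promoter is printed with its match to the interferon element, lay at 7.37, 17.6 and 11.4 CPM in Cre- MPTP, 10.8 to 14.3 CPM in Cre+ MPTP and 5.48 to 8.29 CPM in saline libraries, an interaction of 0.00 (SE 0.38, 95% interval -0.82 to 0.82; -0.24 without Cre- MPTP replicate 1). Gbp6 lay at 9.54, 17.9 and 12.9 CPM in Cre- MPTP, 4.29 to 7.50 CPM in Cre+ MPTP and 2.24 to 4.69 CPM in saline libraries, an interaction of -1.79 (SE 0.42, edgeR adjusted p = 0.205), and was called without Cre- MPTP replicate 1, as was Irgm1. Paralogs of this family share sequence, so that single members are uncertain. Over all 13 libraries MHC class I genes had a more negative median interaction, -1.12. Of these genes, 9 of 13 were negative at an unadjusted p under 0.05, where 3.22% of all genes tested were. Without Cre- MPTP replicate 1 the median was -0.571, beside -0.652 for the GTPase genes. The MHC class I genes summed to 2318 CPM in that library and to 650 and 996 CPM in replicates 2 and 3 of Cre- MPTP. B2m, the light chain of MHC class I, was the 1 member that met the 2-fold limit, at 77.0, 137 and 188 CPM in Cre- MPTP, 98.5 to 124 CPM in Cre+ MPTP and 62.4 to 87.8 CPM in saline libraries, and its interaction without that library was -0.39 (95% interval -0.81 to 0.03).

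The promoters were then searched for the interferon element. The letters GAAANNGAAA, on either strand of the 300 bases from 250 before to 50 after a start, were found in 498 of 13187 tested genes with a promoter (3.78%), in 10 of 15 type I interferon-stimulated genes and in 9 of 10 interferon-gamma GTPase genes. They were also found in 4 of 9 A1 astrocyte genes, 2 of 8 A2 astrocyte genes, 3 of 11 MHC class I genes, 2 of 6 endothelin genes and 3 of 14 RIPK3, death receptor and DAMP genes. Of the genes within the 2-fold limit they were found in 3 of 28 that rose (B2m, Gbp7 and Stat2) and 0 of 19 that fell. Among the genes called without Cre- MPTP replicate 1 they were found in 3 of 78 with a negative interaction and 1 of 70 with a positive one, a share near that of all promoters. The 2 motifs overlapped in 0 of the 32851 windows searched, and a match is a description of letters and not a bound site.

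**Figure D5:**
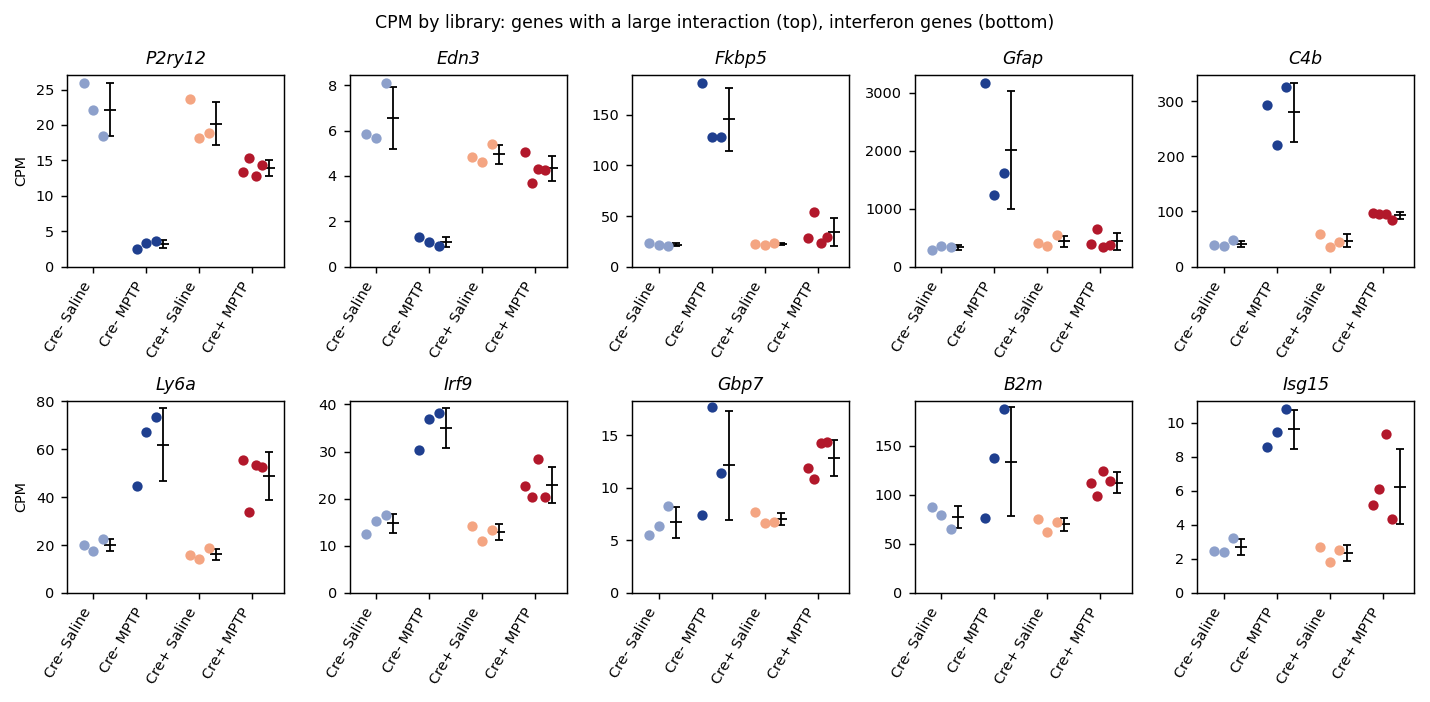
CPM in each library (points) with the group mean and SD (black bar, n = 3, 3, 3 and 4) for 5 genes with a large interaction (top) and 5 interferon genes (bottom). In the top row the Cre- MPTP libraries stand apart from the other 3 groups, whereas Ly6a, Gbp7, B2m and Isg15 have overlapping MPTP groups in the bottom row. For Ly6a, B2m and Isg15 the overlap comes only from Cre- MPTP replicate 1, the lowest library of its group there.

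Of 17 dopaminergic neuron genes, 0 had an interaction at an unadjusted p under 0.05 (edgeR), where 3.22% of all genes tested were negative and 2.54% positive. For the average 0 were called (edgeR), where 2.02% of all genes tested rose and 0.811% fell. With shares this low, 0 of 17 does not set the list apart from all genes. The median interaction was -0.0094. Th had an interaction of -0.15 (SE 0.27, 95% interval -0.73 to 0.43), and the dopamine transporter Slc6a3 one of 0.58 (SE 0.59, 95% interval -0.71 to 1.88), with 10.8 CPM in Cre- MPTP replicate 1 against 42.3 to 77.4 CPM in the other libraries. For 7 of the 17 the interval lay within 2-fold, where 36.7% of all genes tested had such an interval. Of 13 neuron genes 9 had one and 0 passed either test (edgeR), and of 18 astrocyte transport and homeostasis genes 9 had one. Of these 18, 3 had a negative and 1 a positive interaction at an unadjusted p under 0.05 (edgeR), where 3.22% and 2.54% of all genes tested did. With Cre- MPTP replicate 1 left out, 14 of 17, 13 of 13 and 16 of 18 had such an interval, where 63.1% of all genes did. In that fit 2 neuron genes fell and 1 dopaminergic gene rose on average. Of the astrocyte genes 5 rose and 2 fell on average, and Slc7a10 was called in the interaction (0.603, edgeR adjusted p = 0.0374). The glutamate transporter Slc1a2 had an interaction of -0.05 (SE 0.34, 95% interval -0.79 to 0.70). Aldh1l1, whose promoter drives the Cre, had -0.50 (SE 0.21, unadjusted p = 0.0335, edgeR), with 114 to 160.1 CPM in Cre- MPTP and 91.2 to 110.6 CPM in Cre+ MPTP libraries.

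Of 12 myelin and oligodendrocyte genes, 4 fell on average (Mog, Cnp, Opalin and Ugt8a) and the same 4 had a positive interaction at an unadjusted p under 0.05. Opalin lay at 1.95, 12.4 and 4.89 CPM in Cre- MPTP, 20.6, 33.7, 36.6 and 21.8 CPM in Cre+ MPTP and 40.1 to 57.2 CPM in saline libraries, and its interaction was 2.21 (SE 0.62, edgeR adjusted p = 0.341). The median interaction of the list was 0.582, and 0.274 without Cre- MPTP replicate 1. Oligodendrocyte precursor (median 0.0845), cholesterol synthesis (0.206), cell cycle (0.32), and NRF2 antioxidant and metallothionein genes (-0.286) had 0 called by edgeR over all 13 libraries and 1, 1, 2 and 3 genes at an unadjusted p under 0.05. Of the NRF2 and metallothionein genes, DESeq2 and limma voom called 3 each, and voom called 3 precursor genes and 1 cell cycle gene. Without Cre- MPTP replicate 1 edgeR called Mt1 and the precursor gene Sox10, and the medians of the precursor and the NRF2 list were 0.443 and -0.143. Immediate-early genes had a median of -0.972, with 5 of 12 negative and 1 positive at that level, and median log2 fold changes of -0.158 in Cre- and -0.777 in Cre+ mice. They summed to 239 to 382 CPM in Cre- Saline and to 452 to 550 CPM in Cre+ Saline libraries, without overlap.

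Lists of other tissues marked single libraries. The muscle markers had a median interaction of 4.34, which was -1.22 without Cre+ MPTP replicate 4, and the pituitary markers one of -2.50, in which Cre+ Saline replicates 1 and 3 were high. Erythrocyte (1.42), choroid plexus (0.0641) and meningeal fibroblast markers (-0.0379) had 0, 1 and 2 genes at an unadjusted p under 0.05. Without Cre+ MPTP replicate 4 the interaction of P2ry12 was 2.24 and that of Edn3 2.44. The part of these tissues in other results was not tested.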

How the data were processed

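RNA-Seq was performed on total RNA of 13 midbrains (TruSeq Stranded Total RNA kit, 2 × 150 base reads). Per the study's methods, adapters and poor bases were removed with Trimmomatic 0.36, STAR 2.5.2b aligned the reads to GRCm38, and featureCounts (Subread 1.5.2) counted uniquely assigned reads for every gene; the strand setting is not given in the sources used here, so overlapping genes on opposite strands may share reads. The deposited values are these raw counts with no scaling by the authors. Totals of 11489150 to 29397278 per library set the precision, which is low for weakly expressed genes. Symbols for 48970 of the 49315 genes, and gene positions, came from GENCODE M21.

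The models were fitted in edgeR 4.0.16 (R 4.3.3): TMM factors, at least 10 counts in at least 3 libraries, 1 term per group over all 13 libraries, the quasi-likelihood test and Benjamini-Hochberg adjustment over the 19360 genes tested (threshold 0.05). A standard error is the absolute log2 fold change over the square root of F, and intervals are 95% intervals from it. Named genes were those called in the interaction, the 12 of smallest p in each direction, the 15 of smallest p within the 2-fold limit, Ripk3, and list members called in a contrast or, failing that, the 2 of highest level. Genes named beyond this rule were chosen after their values were seen. The contrast, the lists and the promoter motifs were chosen with earlier results of these data known. Alternatives were DESeq2 1.42.0, limma 3.58.1 (voom with sample weights), other filters, size factors and weights, a replicate block, and each library left out in turn. Another had the number series as a term, the number (below or above 6000) that heads the counts of each library. What these numbers stand for is not given in the sources used here. A fit without the pair Cre- MPTP 1 and Cre+ MPTP 2, and one without mitochondrial genes, were added after seeing the data. The fits were tested on simulated data in which all groups shared the spread of a gene and only Cre+ MPTP held added effects. That test does not cover the wider spread of the Cre- MPTP group or a library that stands apart. Raw reads and pathway analysis were not used here.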

Additional observations from a re-analysis of the deposited data

Results flagged for a closer look

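The first 2 results were marked because the genotypes' responses to MPTP differed by the test of the interaction itself: P2ry12 with 2.255 and Edn3 with 2.426 log2 units (edgeR's quasi-likelihood test, adjusted p = 0.024 and 0.0381).

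Among 75 genes named in the text, 12 had a Cre+ MPTP library far from the other 3 of its group, where chance marks about 1 in 20 groups; the genes vary together, and the number was not tested. The distant library was most often Cre+ MPTP replicate 2. It was high for Fkbp5 (54.32 CPM), Gfap (654.7), Serpina3n (170.5), Timp1 (10.07), Lcn2 (153.2) and Mt1 (311.2), and low for Ly6a (33.79) and Fcgr1 (4.643). Cre+ MPTP replicate 4 was high for Atf3 (1.908 CPM) and Cxcl12 (52.73), replicate 1 was distant for Timeless (8.722), and replicate 3 was high for Aldh1l1 (110.6). Without Cre+ MPTP replicate 2, 58 genes were called in the interaction and 5 in the response of Cre+ mice; what sets this library apart was not tested.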

How the results depend on the processing

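The number of genes called moved more with the setting than the values did. The 2 interaction calls became 1 with DESeq2 size factors, 223 with DESeq2, 689 with limma voom, 10 without a count filter, 5 with the number series as a term, 409 with both replicate 1 of Cre- MPTP and replicate 2 of Cre+ MPTP left out, and 0 to 199 over single libraries left out; 199 came from dropping replicate 1 of Cre- MPTP, 58 from dropping replicate 2 of Cre+ MPTP and 8 from dropping replicate 2 of Cre- MPTP. The labels do not say whether equal replicate numbers pair mice of different groups. With a replicate block 0 genes were called in the interaction (edgeR). The 549 average calls became 988 with DESeq2, 2768 with voom, 1670 with both left out, 345 with the replicate block and 306 to 1765 over single libraries. The 616 calls in Cre- mice became 1137, 2624 and 1987 with the first 3 of these settings and 311 to 1812 over single libraries, and the 0 calls in Cre+ mice became 83, 294 and 141, with 9 without a filter, 3 with the stricter filter and 0 to 32 over single libraries. The 58 genes within 2-fold became 189, 1658 and 860, with 22 without a filter, 27 with the number series, 19 with the replicate block, 7 with an interval within 1.5-fold and 12 to 952 over single libraries. The cause was not tested.

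Of the alternative values for the 24 interaction genes, 417 stayed on the same side of the threshold, 113 passed it and 22, all of P2ry12 or Edn3, no longer did; 0 changed sign. Of the list medians, 742 moved by less than the spread and 17 by more, and 9 lists took the other sign in some of 23 settings, astrocyte homeostasis and dopaminergic neuron genes in 7 each. Depth limits genes with few counts, such as Ripk3.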
